A study of Homo sapiens with 24 samples.

Results

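The 9 genes described here, NEUROD1, INSM1, YAP1, SOX2, SOX11, FOXA1, FOXA2, PROX1 and NFIB, encode transcription regulators by which small-cell lung cancer is classed or which its neuroendocrine state is known to use. They were taken by gene symbol and are 9 of the 16796 genes that appear in at least 1 of the 5 deposited tables. The series sequenced total RNA from 4 established human lines of this cancer, 2 of them classed in the series as ISL1 high (H187 and H209) and 2 as ISL1 low (H82 and SHP-77), with ISL1 a neuronal homeobox factor. Each line received 0.1 nM lurbinectedin or its vehicle DMSO for 24 h, in 3 biological replicates per line and treatment by the series design, which gives 24 libraries in 8 groups. Lurbinectedin, a treatment for relapsed small-cell lung cancer, alkylates DNA at guanine and stalls transcribing RNA polymerase II. The labels name no engineered change in any line. With 2 lines in a class, a difference between the classes is one between these 4 lines, and nothing in the design separates ISL1 from whatever else distinguishes them.

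Small-cell lung cancer is a neuroendocrine carcinoma, and tumours are grouped by which lineage regulator dominates them. NEUROD1 is a proneural basic helix-loop-helix factor that pairs with an E protein (TCF3, TCF4 or TCF12) to bind E-box DNA, and it marks one neuroendocrine subtype. INSM1 is a zinc-finger repressor found in nearly all neuroendocrine tumours. YAP1 is the coactivator at the end of the Hippo pathway, works through the TEAD factors, and is typically silent in neuroendocrine small-cell lung cancer. SOX2 and SOX11 are SRY-box factors of progenitor cells and of maturing neurons, FOXA1 and FOXA2 are pioneer factors of endoderm and airway epithelium, PROX1 is a Prospero-type homeobox factor, and NFIB is a nuclear factor I protein whose gene is gained in some of these tumours.

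Levels are given as CPM, a gene's counts scaled to the size of its library, on one scale for all 24 libraries that was set on the 11408 genes listed in all 4 line tables. Library totals ran from 24226553 to 36415190 counts. All 4 line tables listed 6 factors, INSM1, SOX11, FOXA1, FOXA2, PROX1 and NFIB. NEUROD1 and SOX2 were each listed in 3, and YAP1 in 1. The deposited tables leave out genes with few counts, so "not listed" means below that undescribed limit and not an absence of transcript. Of 10 neuroendocrine marker genes, 9 were listed in H187, H209 and SHP-77 and 7 in H82. Of 4 leucocyte markers, CD68 was listed in every line (0.379 to 2.48 CPM over all libraries) and PTPRC, CD3E and LYZ in none. Of 3 endothelial markers, VWF was listed in H187, H209 and SHP-77 and PECAM1 in the latter pair, with summed levels of at most 8.89 CPM, and CDH5 in no line. Of 7 non-neuroendocrine or mesenchymal markers, H187 listed 3, H209 listed 4, H82 listed 5 and SHP-77 listed 2.

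Promoter sequence is shown for SOX2 and YAP1, because both were restricted to some of the lines and both windows hold an E-box. Of the 9 factors, 5 (NEUROD1, YAP1, SOX2, FOXA1 and NFIB) had entries in the RefSeq promoter table, whose build is GRCh38.p14. The stretches below are the 250 bases before the start, both on the plus strand and written 5′ to 3′, at chr3:181711675-181711924 for SOX2 and chr11:102110197-102110446 for YAP1. Capitals mark an E-box, CANNTG, the motif class that basic helix-loop-helix dimers such as NEUROD1 with an E protein bind.
SOX2: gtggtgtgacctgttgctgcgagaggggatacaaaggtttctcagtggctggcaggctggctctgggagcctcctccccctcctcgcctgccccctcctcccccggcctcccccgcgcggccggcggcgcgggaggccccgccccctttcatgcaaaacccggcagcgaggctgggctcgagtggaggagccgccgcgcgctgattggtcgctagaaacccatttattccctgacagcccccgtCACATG
YAP1: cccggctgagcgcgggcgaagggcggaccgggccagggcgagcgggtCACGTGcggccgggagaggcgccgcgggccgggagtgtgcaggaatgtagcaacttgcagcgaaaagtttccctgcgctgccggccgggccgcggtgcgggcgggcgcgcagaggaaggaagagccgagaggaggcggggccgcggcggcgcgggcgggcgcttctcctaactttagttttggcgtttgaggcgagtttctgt
Over the full 300-base windows, which add 50 bases after the start, the E-box occurred 1 time in SOX2, 1 time in YAP1, 4 times in FOXA1 and 0 times in NEUROD1. It occurred in 68.7% of all 35116 promoter windows of this length, so its presence is ordinary. The TEAD core GGAATG, held by 14.0% of windows, was found 1 time in the YAP1 window. NFIB has 10 windows in the table, of which 8 held an E-box, 2 the TEAD core and 0 the SOX or forkhead core. Both strands were searched for every motif. The SOX core AACAAAG, held by 5.2% of windows, was found 1 time in FOXA1, and the forkhead core TGTTTAC, held by 3.42%, in none of these 4 windows. These are matches of letters and not measured binding sites.

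Each line carried its own combination of these factors. Under DMSO, 42 pairs of lines could be tested for a factor listed in both, and 41 of them passed edgeR's quasi-likelihood test at an adjusted p below 0.05. That is 97.6%, beside 85.0% of all genes for H187 against H209, 87.5% for H187 against H82, 87.2% for H187 against SHP-77, 88.4% for H209 against H82, 87.3% for H209 against SHP-77 and 88.1% for H82 against SHP-77. Differences between lines were therefore the rule for all genes, and the size of a difference says more than its call. Across the 11408 shared genes the median fold between the highest and the lowest line was 2.61. Fewer expressing cells and less RNA per cell cannot be told apart in these bulk libraries.

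NEUROD1, which lies at hg38 chromosome 2, 181668295 to 181680665, minus strand, was a gene of H82. Its 3 DMSO libraries in H82 held 291, 276.6 and 295.6 CPM, a mean of 288 ± 9.91 (SD, n = 3). H209 followed at 12.7 ± 0.405 CPM and H187 at 0.801 CPM, from 17, 21 and 29 counts. The order H82, H209, H187 had no overlapping neighbours: H82 was 22.7 times H209 and 360 times H187. The SHP-77 table did not list NEUROD1. In the authors' table for the comparison of ISL1 classes under lurbinectedin, the 3 SHP-77 libraries held 2, 1 and 0 counts.

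INSM1 showed the reverse picture in H82. This gene of 1 exon, at chromosome 20, 20368121 to 20370948, plus strand, stood at 783 ± 70.4 CPM in SHP-77, 778 ± 59.9 in H209 and 562 ± 36 in H187 (SD, n = 3 each). H82 held 12.53, 12.15 and 13.63 CPM, far below every other library. The log2 difference between H209 and SHP-77 was -0.0015 ± 0.047 (SE, adjusted p = 0.98, edgeR), the single pair of the 42 that did not pass. H187 was lower than SHP-77 by a log2 difference of -0.47 ± 0.05 (adjusted p = 1.1e-09), and H209 was 60.4 times H82. The line with the highest NEUROD1 thus had the lowest INSM1.

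SOX2, the progenitor factor at chromosome 3, 181711924 to 181714435, was highest in SHP-77, where the DMSO libraries held 110.1, 109.7 and 102.5 CPM. H187 stood at 7.48 CPM and H209 at 3.47 CPM, and their libraries did not overlap. The H82 table did not list SOX2, and in the authors' class table its 3 lurbinectedin libraries held 0, 0 and 0 counts. A count of 0 (3 counts taken as the limit) allows up to 0.105 CPM in the shallowest of those libraries, a limit for counting error only. SOX2 lies inside the noncoding gene SOX2-OT on the same strand, and how shared reads were assigned is not given in the sources used here. SOX2-OT itself was low under DMSO, at 4.13, 4.38 and 2.08 CPM in H187, H209 and SHP-77, and was not listed in H82.

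SOX11, a SOXC factor of developing neurons at chromosome 2, 5692667 to 5701385, was the most abundant of the 9 in CPM in H187 and H82, and INSM1 exceeded it in H209 and SHP-77. In H187 its DMSO libraries held 1584, 1777 and 1903 CPM. SHP-77 followed with 594 CPM, H82 with 347 and H209 with 203 ± 1.37 (SD, n = 3). No neighbouring lines overlapped, and H187 was 8.72 times H209. The 2 SOX factors therefore peaked in different lines, SOX2 in SHP-77 and SOX11 in H187, and each of the ISL1 classes held a high and a low line for SOX11.

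FOXA1, at chromosome 14, 37589552 to 37595120, followed the order H187 (186.6 to 187.1 CPM), H209 (88.0), SHP-77 (74.6) and H82 (29.3). The step from H209 to SHP-77 was small, a log2 difference of 0.25 ± 0.04 (adjusted p = 1.2e-06, edgeR), and the libraries did not overlap. FOXA2, its paralog at chromosome 20, 22581004 to 22585463, had another order and a wider range. SHP-77 held 113 ± 6.66 CPM and H209 56.6, against 3.78 in H187 and 1.53 in H82. The highest line was 73.9 times the lowest. H187 thus carried the most FOXA1 and little FOXA2.

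PROX1, at chromosome 1, 213987935 to 214041504, was highest in H209, at 414.7, 441.8 and 442.7 CPM. SHP-77 stood at 194 CPM, H187 at 161 and H82 at 23.8, and H209 was 18 times H82. The noncoding PROX1-AS1 overlaps it on the other strand and held 8.97 CPM in H209. NFIB, at chromosome 9, 14081843 to 14398983, spans 317 kb and varied least among the lines. It stood at 272 CPM in H209, 207 in SHP-77, 131 in H187 and 95.3 in H82. H82 was the lowest line for 5 of the 6 factors listed everywhere, the exception being SOX11, while 28.3% of all shared genes were lowest in H82.

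YAP1, at chromosome 11, 102110461 to 102233423, was listed in H187 alone, where the DMSO libraries held 52, 34 and 53 counts, or 1.808, 1.32 and 1.824 CPM. It was the rarest factor but 1 in that line. Its paralog WWTR1 was listed at 2.13 CPM in H209 and 1.81 in SHP-77. The transcript of TEAD1, one of the DNA-binding partners of YAP1, was listed in every line, at 554 CPM (H187), 638 (H209), 199 (H82) and 213 (SHP-77).

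**Figure D1:**
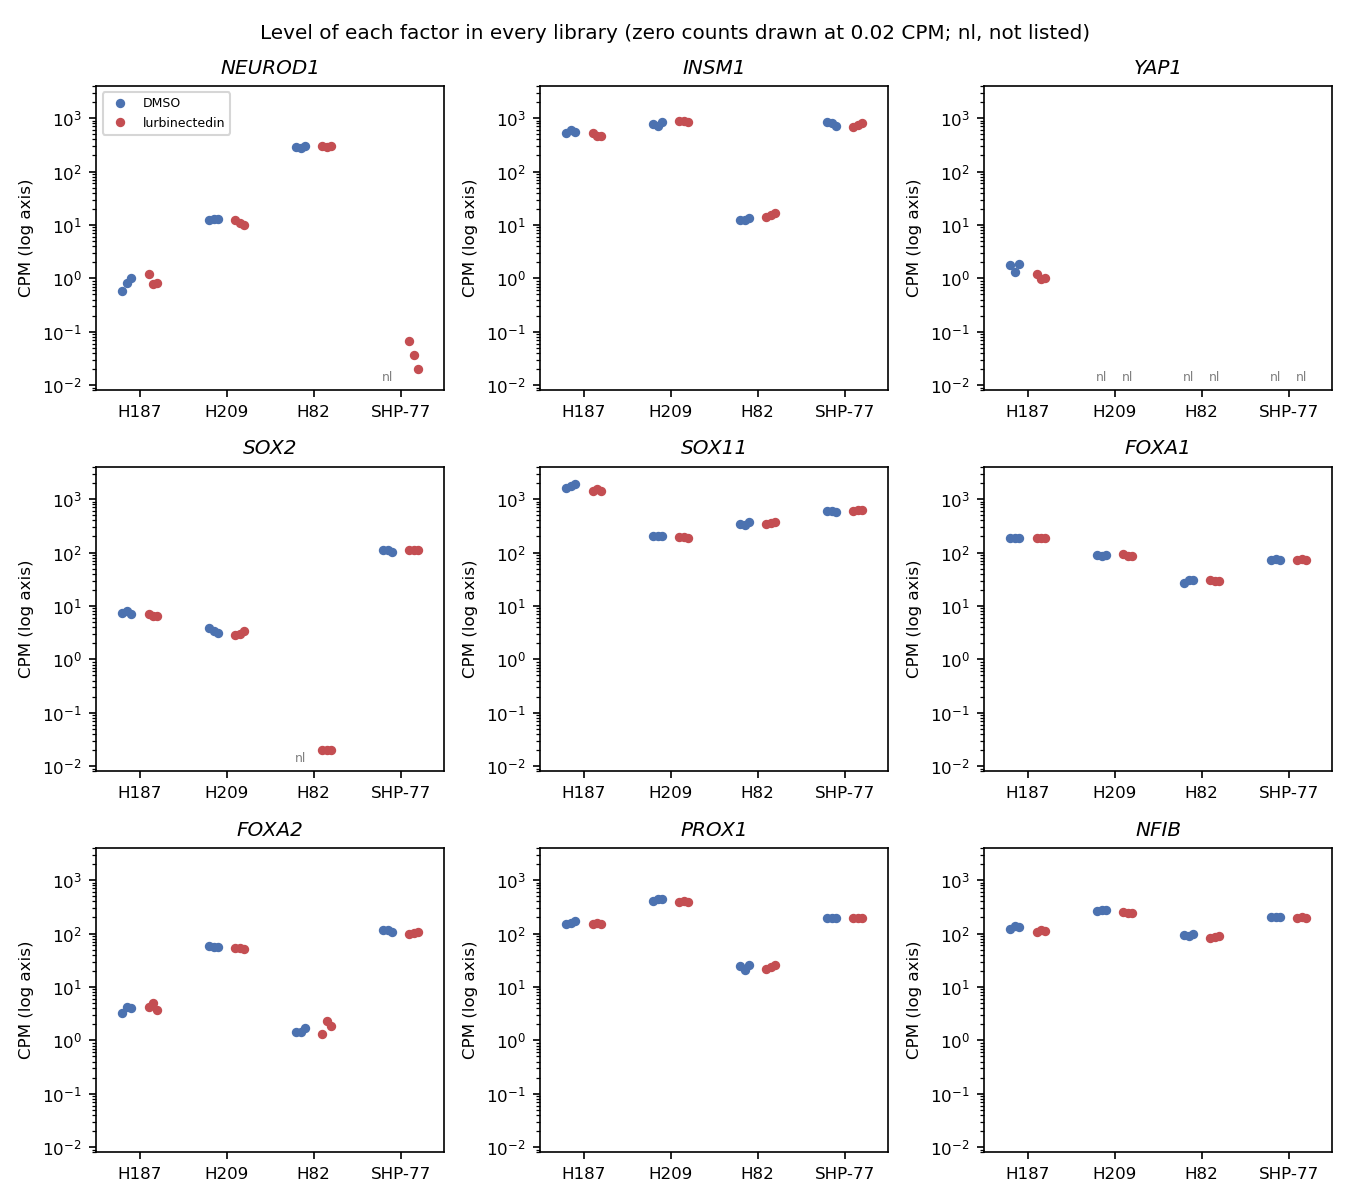
CPM (log axis) of each factor in every DMSO and lurbinectedin library, by line. NEUROD1 sits near 288 CPM in H82 and near 12.7 in H209, INSM1 drops to 12.8 CPM in H82, SOX2 stands out in SHP-77, and YAP1 has points in H187 only.

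Levels of different genes were compared per kilobase of exon (CPM per kb), since the factors' exonic lengths range from 2512 to 9179 bases. On that scale the leading factors under DMSO were SOX11 (201 CPM per kb) and INSM1 (199) in H187. INSM1 (275) led in H209, ahead of PROX1 (49.7). In H82, NEUROD1 (40.7) and SOX11 (39.7) led, and in SHP-77 INSM1 (277) was followed by SOX11 (68.1), FOXA2 (43.3) and SOX2 (42.8). INSM1 was first or next to first in 3 lines and the fifth of 7 in H82, at 4.52 CPM per kb. SOX11 was among the leading 2 in every line but H209, where it was the fifth of 8 at 23.2 CPM per kb. These ranks hold for exon lengths as deposited, which pool all isoforms.

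**Figure D2:**
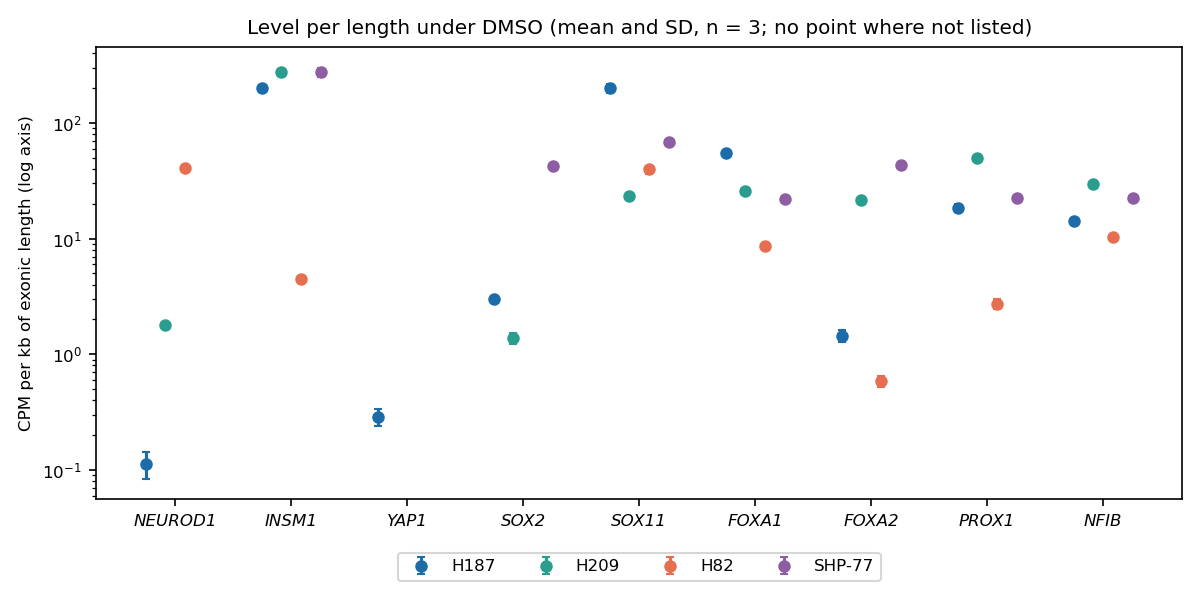
Mean DMSO level of each factor per kilobase of exon (log axis) in the 4 lines. INSM1 lies at 199 to 277 CPM per kb in H187, H209 and SHP-77 and at 4.52 in H82, where NEUROD1 reaches 40.7.

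The series sets the ISL1-high lines against the ISL1-low ones. With each line fitted by its own mean, 5 of the 6 factors listed in all lines were higher in the ISL1-high class under DMSO and 0 were lower, beside 89.0% of all genes called in either direction and 45.2% called higher. INSM1 differed by 2.73 ± 0.05 on the log2 scale (SE), PROX1 by 1.96 ± 0.04, FOXA1 by 1.46 ± 0.03, NFIB by 0.43 ± 0.03 and SOX11 by 0.40 ± 0.04. FOXA2 differed by 0.15 ± 0.07 (adjusted p = 0.054, edgeR). Under lurbinectedin 6 of 8 factors passed, all higher, beside 88.9% of all genes in either direction and 47.0% higher. The sixth was SOX2, whose highest line, SHP-77, is in the ISL1-low class, so that its direction rests on the 0 counts of H82 and on the prior count of the fit. These differences did not follow ISL1 class line by line. For INSM1, PROX1 and NFIB the ISL1-low line SHP-77 exceeded the ISL1-high line H187. Only FOXA1 had both ISL1-high lines above both ISL1-low lines. With 1 mean value per line, 2 against 2, limma called 0 of the 6 factors under DMSO (adjusted p = 0.67 for FOXA1), and 0 had an unadjusted p below 0.05. That fit also called 0 of all 11408 genes, of which 863 had an unadjusted p below 0.05, so its result does not single out the factors. With class as the only term, FOXA1 alone was called (log2 difference 1.41 ± 0.36, adjusted p = 0.00848, edgeR), beside 4598 of the 11408 genes. That fit counts the 12 libraries, 3 per line, as independent replicates of their class, although each class holds 2 lines. The authors' deposited table for the lurbinectedin libraries gives FOXA1 a log2 fold change of 1.41 with an FDR of 0.0011. It also lists NEUROD1 at -4.68 with an FDR of 0.031 and INSM1 at 0.82 with an FDR of 0.50. With class as the only term, the lurbinectedin libraries gave the same log2 fold changes (1.41, -4.68 and 0.82). The authors' FDR values may therefore also count the libraries of a line as independent replicates of its class. The contrast of line means under lurbinectedin gave NEUROD1 -0.07 ± 2.62 (adjusted p = 0.98, edgeR). Of the ISL1-low lines, H82 held 295 CPM of NEUROD1 there and SHP-77 only 2, 1 and 0 counts, below both ISL1-high lines.

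Lurbinectedin moved these factors little in fold, and mostly downward in the ISL1-high lines. In H187, 4 of 9 factors fell and 0 rose, beside 24.9% of all genes called in either direction and 12.7% called lower. In H209, 4 of 8 fell and 1 rose, beside 45.2% called, 22.5% lower and 22.7% higher. In SHP-77, 1 of 7 fell and 0 rose, beside 5.19% called and 3.21% lower. In H82, 0 of 7 passed, beside 2.92% called. There 2 factors, INSM1 and NFIB, had an unadjusted p below 0.05, and DESeq2 also called 0. Over the listed factors, H187 had a median log2 fold change of -0.16, H209 of -0.10, H82 of 0.04 and SHP-77 of -0.01, beside medians of all genes from 0.00069 to 0.0044. Every treated library lay below every control library for 5 of the 9 factors listed in H187, 5 of the 8 of H209, 1 of the 7 of H82 and 2 of the 7 of SHP-77, beside 19.9%, 27.0%, 11.8% and 12.0% of all genes. The opposite separation, every treated library above every control library, was seen for INSM1 in H209 and H82 and for SOX2 in SHP-77. The share of all genes in that direction is not given here. In H209 the summed level of the 4 listed non-neuroendocrine markers was 212 to 218 CPM under DMSO and 267 to 283 under lurbinectedin. In H82 the sum of the 5 listed was 26.7 to 29.7 and 31.8 to 34.8 CPM, and in H187 and SHP-77 the ranges overlapped. The summed neuroendocrine markers of SHP-77 held 3280 to 3340 CPM under DMSO and 3080 to 3140 under lurbinectedin. Those of H209 held 1880 to 1930 and 1830 to 1880 CPM, ranges that meet at the rounded edge. In H187 and H82 the ranges of this sum overlapped. The part of these shifts in the results was not tested.

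**Figure D3:**
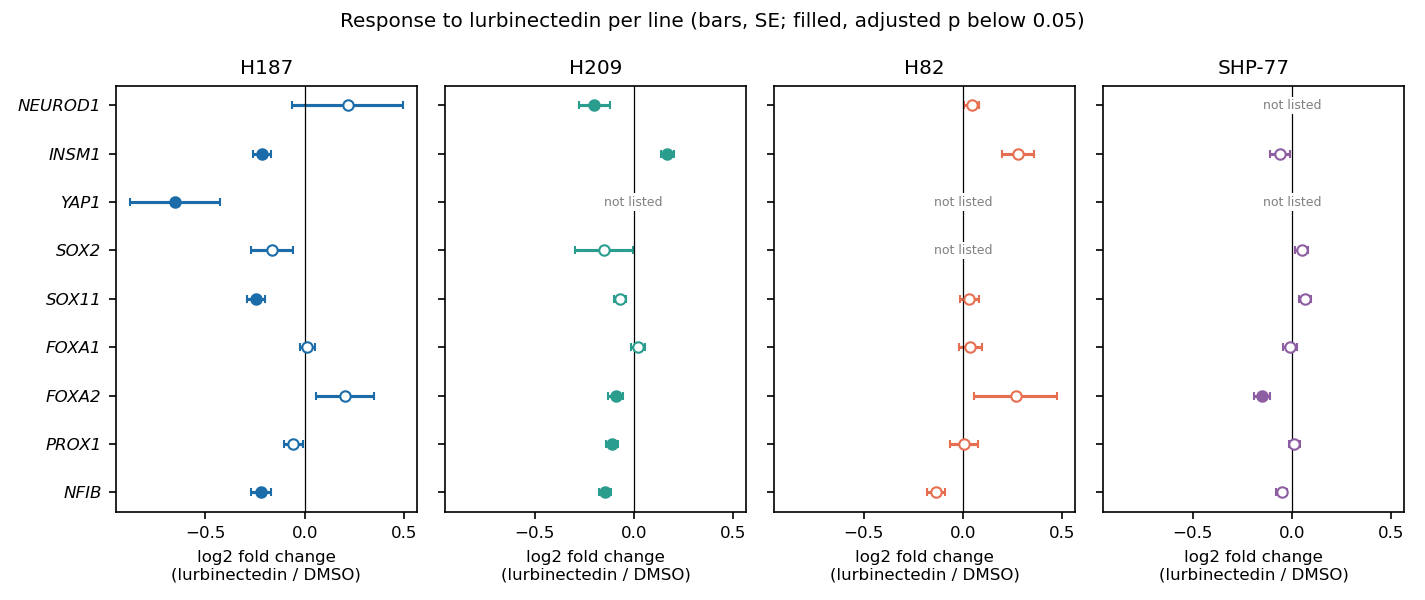
Log2 fold change (lurbinectedin over DMSO) of each factor in each line, with its standard error and with filled points for an adjusted p below 0.05. H187 has 4 filled points, H209 has 5, H82 has 0 and SHP-77 has 1, and the INSM1 points lie on opposite sides of 0 in H187 and H209.

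INSM1 moved in opposite directions in the 2 ISL1-high lines. In H187 its DMSO libraries held 533.7, 602.7 and 550.1 CPM and its lurbinectedin libraries 518.6, 463.1 and 467.1 CPM, with every treated library below every control. The log2 fold change was -0.21 ± 0.05 (adjusted p = 0.0016, edgeR). In H209 the control libraries held 767.5, 723.3 and 841.9 CPM and the treated ones 876.3, 888.8 and 844.3 CPM, all of them above the controls, a log2 fold change of 0.17 ± 0.03 (adjusted p = 1.7e-05). The interaction test of the difference, H209 minus H187, gave 0.39 ± 0.06 (adjusted p = 8.7e-05). INSM1 and SOX11 were the 2 of 8 factors to pass that test, beside 10.4% of all genes. In H82, where INSM1 was scarce, controls of 12.53, 12.15 and 13.63 CPM and treated libraries of 13.96, 15.35 and 16.84 CPM did not overlap. The change there, 0.28 ± 0.08, did not pass (adjusted p = 0.058), while the authors' deposited table gives it an FDR of 0.020 and it passed without DMSO replicate 3 (adjusted p = 0.013). In SHP-77 the groups overlapped (-0.06 ± 0.05, adjusted p = 0.60). The difference between H82 and SHP-77 did not pass either (0.34 ± 0.10, adjusted p = 0.22), and there edgeR and DESeq2 called 0 of 6 factors, beside 0.205% of all genes, with 2 factors at an unadjusted p below 0.05.

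SOX11 fell in H187, its highest line. The control libraries held 1584, 1777 and 1903 CPM and the treated ones 1441, 1540 and 1441 CPM, without overlap, for a log2 fold change of -0.25 ± 0.05 (adjusted p = 4.3e-04, edgeR). In H209 the controls of 201.5, 202.4 and 204.2 CPM also lay above the treated 192.5, 193.1 and 191.5 CPM. That shift of -0.07 ± 0.03 did not pass (adjusted p = 0.072, or 0.047 with DESeq2). In H82 and SHP-77 the log2 fold changes were 0.03 ± 0.05 and 0.06 ± 0.03, and neither passed. The mean response of SOX11 in the ISL1-high lines minus that in the ISL1-low lines was -0.21 ± 0.05 (adjusted p = 8.5e-04, edgeR). H187 carried most of this difference, and the p-value measures spread among libraries of a line, not among lines of a class. SOX11 was the only one of 6 factors to pass this test, beside 31.6% of all genes. The difference between H209 and H187, 0.18 ± 0.06 (adjusted p = 0.032), was lost with DESeq2 (adjusted p = 0.051) and on leaving out any of 10 of the 12 libraries (up to 0.14).

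**Figure D4:**
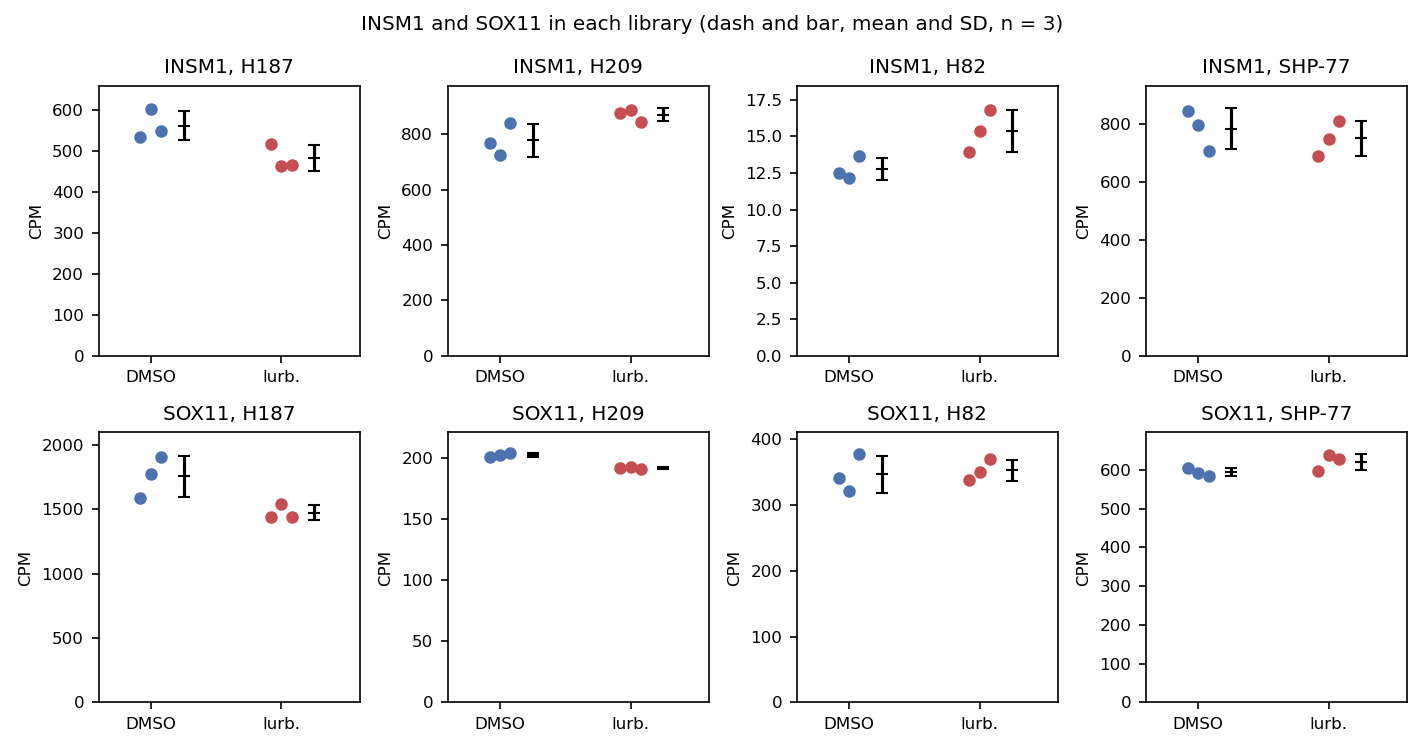
CPM of INSM1 and SOX11 in every library of the 4 lines under DMSO and lurbinectedin. INSM1 goes from 562 to 483 CPM in H187 and from 778 to 870 in H209, and SOX11 goes from 1750 to 1470 CPM in H187.

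NFIB was lower in every lurbinectedin library than in every DMSO library of its line, in all 4 lines. That held for 2.01% of the 11408 shared genes and for none of the other 5 factors listed in all lines. In H187 controls of 122.1, 135.7 and 135.4 CPM stood over treated values of 107.2, 117.9 and 111.1 CPM (-0.22 ± 0.05, adjusted p = 0.0022, edgeR). In H209 controls of 268.9, 272.1 and 274.7 CPM stood over 249.6, 244.6 and 240.9 CPM (-0.14 ± 0.03, adjusted p = 1.3e-04). These 2 changes passed and those of the ISL1-low lines did not. In H82 the control libraries held 95.4, 91.88 and 98.67 CPM and the treated ones 81.98, 86.98 and 89.97 CPM (-0.13 ± 0.04, adjusted p = 0.11, or 0.032 in a fit of all 24 libraries). In SHP-77 values of 205.8, 207.1 and 206.8 CPM were followed by 196, 202.9 and 198.5 CPM (-0.05 ± 0.03, adjusted p = 0.34). The response difference between classes was -0.09 ± 0.04 and did not pass (adjusted p = 0.082).

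PROX1 fell in H209, the line where it was most abundant. Controls of 414.7, 441.8 and 442.7 CPM stood above treated values of 397.5, 408.8 and 391.1 CPM, a log2 fold change of -0.11 ± 0.03 (adjusted p = 0.0018, edgeR). It did not pass elsewhere (-0.06 in H187, 0.004 in H82 and 0.01 in SHP-77). FOXA1 did not pass in any line, with log2 fold changes from -0.01 to 0.04 and standard errors up to 0.06. FOXA2 fell in SHP-77, its highest line, from 118.4, 115.2 and 105.6 CPM to 96.53, 103.8 and 104.9 CPM (-0.15 ± 0.04, adjusted p = 0.024). That call was lost without DMSO replicate 1 or 2 or lurbinectedin replicate 1, with adjusted p up to 0.19. In H209 FOXA2 went from 56.6 to 52.9 CPM (-0.09 ± 0.04, adjusted p = 0.049), a call at the threshold that 5 of the 6 single-library omissions removed (up to 0.19) and to which the authors' deposited table gives an FDR of 0.056.

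NEUROD1 was steady where it was high. In H82 the lurbinectedin libraries held 299.2, 291.2 and 294.8 CPM, beside 291, 276.6 and 295.6 CPM in the controls, so the groups overlapped, and the change was 0.05 ± 0.04 (adjusted p = 0.57, edgeR). In H209, controls of 12.3, 13.11 and 12.72 CPM stood above treated values of 12.17, 11 and 9.909 CPM (-0.20 ± 0.08, adjusted p = 0.039). That call was lost with DESeq2 (0.10) and without any of 4 of the 6 libraries (up to 0.28). In H187 the change was 0.22 ± 0.28 on 17 to 32 counts per library. SOX2 did not pass in any of the 3 lines that list it (-0.16 ± 0.10 in H187, -0.15 ± 0.15 in H209 and 0.05 ± 0.03 in SHP-77).

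YAP1 had the largest fold change among the factors in H187, on the fewest counts but 1. Its libraries went from 52, 34 and 53 counts under DMSO to 32, 31 and 32 under lurbinectedin, which do not overlap. The log2 fold change was -0.65 ± 0.23 (adjusted p = 0.039, edgeR). The call was lost with DESeq2 (0.096) and without any of 5 of the 6 libraries (up to 0.12). It was not listed elsewhere, so its response could not be compared between lines.

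Long genes were lower more often than short ones after lurbinectedin, and the factors span from 2.51 kb (SOX2) to 317 kb (NFIB). Genes of 300 kb or more had median log2 fold changes of -0.29 (H187), -0.28 (H209), -0.11 (H82) and -0.13 (SHP-77). NFIB, at -0.22, -0.14, -0.13 and -0.05, was lower than the median of all genes in each line, and it was above the median of its span class in H187, H209 and SHP-77. YAP1, at 123 kb, fell by 0.65 where genes of 100 to 300 kb had a median of -0.08. INSM1 and SOX11, at 2.83 and 8.72 kb, fell in H187 although genes under 10 kb had a median of 0.02 there and 7.49% of them fell. The part of gene length in any single response was not tested.

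**Figure D5:**
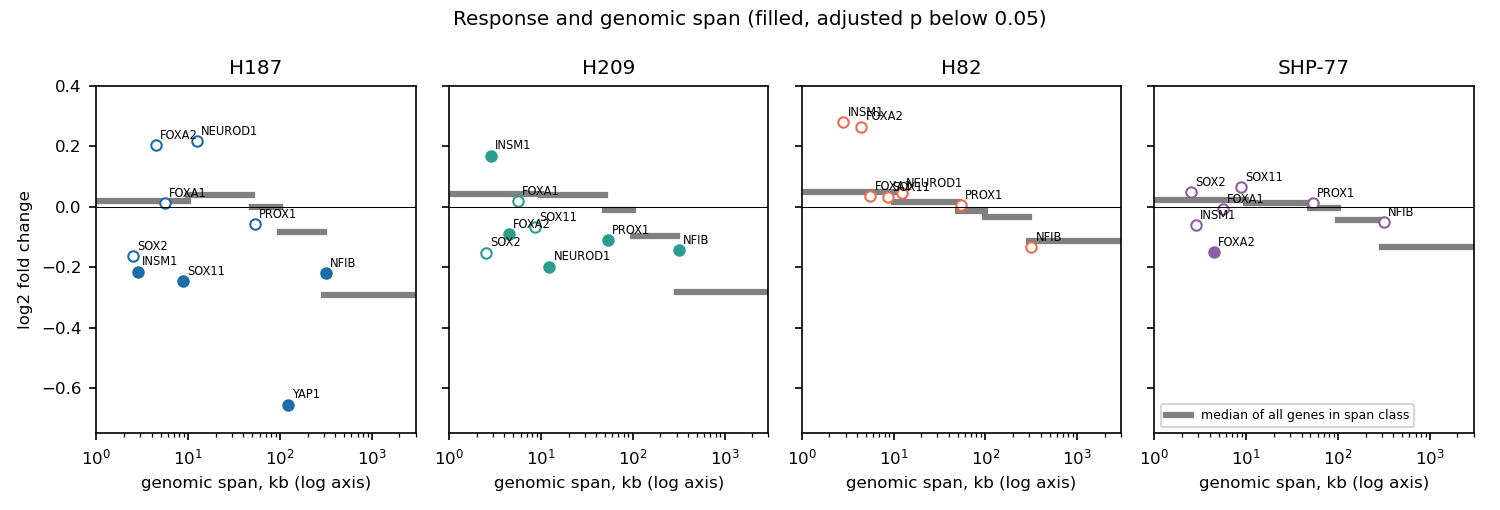
Log2 fold change of each factor against its genomic span in kb (log axis), with grey bars for the median of all genes in 5 span classes. NFIB lies near or above the bar for genes of 300 kb or more in every line, while INSM1 and SOX11 lie below the bar for short genes in H187.

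Genes that work with these factors were taken from lists of known partners and pathway members, with counts to be read beside the shares of all genes called in either direction, 24.9% (H187), 45.2% (H209), 2.92% (H82) and 5.19% (SHP-77), and list medians beside medians of all genes from 0.00069 to 0.0044. No list was tested as a set. A set of 13 genes held binding partners (TEAD1, TEAD2, TEAD3, TEAD4, TCF3, TCF4 and TCF12) and paralogs of the factors (WWTR1, SOX4, FOXA3, NFIA, NFIC and NFIX). Of these 13, 9 were listed in H187 (4 fell, 1 rose), 12 in H209 (5 fell, 1 rose), 11 in H82 (0 fell, 1 rose) and 11 in SHP-77 (1 fell, 0 rose). Among the E proteins that pair with NEUROD1, TCF4 fell in H187 from 126 to 98 CPM (-0.36 ± 0.05), in H209 from 103 to 86 CPM (-0.25 ± 0.03) and in SHP-77 from 478 to 441 CPM (-0.11 ± 0.03). TCF4 spans 414 kb. TCF12 rose in H209 by 0.10 ± 0.02 on the log2 scale and TCF3 fell there by 0.10 ± 0.03. In H82, the NEUROD1 line, none of the 3 E proteins passed.

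The list of basic helix-loop-helix partners and neuroendocrine regulators had 15 of its 30 genes tested in H187 (5 lower, 1 higher), 24 in H209 (6 lower, 3 higher), 20 in H82 (0 and 0) and 16 in SHP-77 (3 lower, 1 higher). Its median log2 fold changes, in the same order of lines, were -0.08, 0.03, 0.01 and -0.04. In H209 ISL1, which names the classes, fell from 204 ± 6.57 to 163 ± 4.36 CPM (SD, n = 3), and in H187 from 250 to 218 CPM. NKX2-1, the lung and thyroid lineage factor, fell in H209 from 125 to 96.9 CPM and in H187 from 456 to 389 CPM. The LIM-homeobox gene LHX2 rose in H209 from 38.1 to 52.1 CPM and in H187 from 2.94 to 4.16 CPM. In SHP-77, ST18 and MYT1L, zinc-finger genes of neurons, fell by 0.17 and 0.27 on the log2 scale, and ONECUT2 rose by 0.15. For the corepressor list of INSM1 and REST, 17 of 19 genes were tested in H187 (2 lower, 3 higher), 18 in H209 (5 and 5), 17 in H82 (0 and 0) and 18 in SHP-77 (2 lower, 0 higher). Its medians were 0.03, -0.01, -0.004 and -0.0003. GSE1, a component of the corepressor complex with LSD1, fell from 674 to 577 CPM in H187, from 648 to 533 in H209 and from 382 to 356 in SHP-77. RCOR3, a CoREST-family member, and GFI1, a repressor with the same kind of recruiting domain as INSM1, rose in H209 by 0.32 and 0.55, and RCOR3 rose in H187 by 0.22.

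Of 31 Hippo pathway genes, 22 were tested in H187 (3 lower, 2 higher) and 29 in H209 (13 lower, 3 higher), where 22.5% of all genes were lower and 22.7% higher. In H82 and SHP-77 27 were tested, with 1 lower and 1 higher in each. The list medians were -0.08 in H187, -0.10 in H209 and -0.01 in both other lines. STK3, a core Hippo kinase, fell in H187 from 17.1 to 12.8 CPM, in H209 from 35.9 to 24.6, in H82 from 24.9 to 20.4 and in SHP-77 from 52.6 to 43.6, and it spans 488 kb. TEAD1 fell from 554 to 498 CPM in H187 and from 638 to 594 in H209. AJUBA rose in SHP-77 by 0.46 ± 0.09 on the log2 scale and TEAD2 in H82 by 0.22 ± 0.06. Of 29 genes known as YAP1 targets, 13 were tested in H187 (3 lower, 1 higher), 16 in H209 (7 lower, 3 higher), 15 in H82 (0 and 0) and 15 in SHP-77 (1 lower, 0 higher). Their medians were -0.09, -0.27, 0.07 and -0.04. YAP1 itself was not listed in H209, where AMOTL2, a gene of both lists, fell from 294 to 228 CPM and GADD45A, which is also a p53 target, rose from 12.8 to 21.4 CPM.

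In the SOX family, 9 of 18 genes were tested in H187 (3 lower, 0 higher) and 9 in H209 (5 lower, 2 higher). In H82 6 were tested (1 lower) and in SHP-77 7 (0 passed). The medians were -0.001, -0.10, -0.04 and -0.02. SOX4, the SOXC paralog of SOX11, fell in H187 by 0.14 ± 0.04 and in H209 by 0.09 ± 0.02, while its changes in H82 (0.11 ± 0.04) and SHP-77 (0.09 ± 0.03) did not pass. The long genes SOX5 (1033 kb) and SOX6 (510 kb) fell in H187 by 1.25 and 1.00 and in H209 by 0.37 and 0.73 on the log2 scale, and SOX5 fell in H82 by 0.42. SOX12, the third SOXC gene, rose in H209 from 95.3 to 116 CPM.

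Of 28 forkhead and endodermal genes, 20 were tested in H187 (4 lower, 5 higher), 17 in H209 (1 lower, 5 higher), 16 in H82 (0 and 0) and 19 in SHP-77 (1 lower, 2 higher). The medians were -0.02, 0.07, 0.03 and 0.003. FOXO3, a stress-responsive forkhead factor, rose in H209 from 59.4 to 88.3 CPM and in H187 from 144 to 160. FOXC1 rose in H209 from 7.27 to 15.2 CPM and in SHP-77 from 139 to 156. FOXP2 rose in H209 by 0.55 on the log2 scale and fell in H187 by 0.19 and in SHP-77 by 0.20, with the differences not tested. FOXA3, the third FOXA gene, was listed in 2 lines at 0.544 (H209) and 2.72 CPM (SHP-77) under DMSO and did not pass in either.

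Among the nuclear factor I genes, NFIA, a paralog of NFIB, fell from 42.4 ± 4.72 to 29.7 ± 2.74 CPM in H187 and from 23.5 ± 0.84 to 12.8 ± 0.139 CPM in H209 (SD, n = 3). These are log2 fold changes of -0.50 ± 0.07 and -0.87 ± 0.06 (adjusted p = 1.8e-05 and 1.8e-15, edgeR), both larger than those of NFIB, whose 317 kb compares with 386 kb for NFIA. In H82 (-0.24 ± 0.10) and SHP-77 (-0.05 ± 0.03) NFIA did not pass. NFIC rose in H187 from 102 to 115 CPM and NFIX did not pass in any line. Of the 4 genes of this list, 3 were tested in each line, with medians of -0.12, -0.09, -0.24 and 0.07.

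The genes with profiles most like each factor were found by the root mean square difference of centred log2 values over the 24 libraries, among 10451 protein-coding genes. CYFIP1 (0.22) and ZBTB20 (0.314) were nearest INSM1, CA11 (0.21) and IGSF3 (0.238) nearest SOX11, and SUCO (0.0784) nearest FOXA1. PHLDA1 (0.501) and ZMAT4 (0.512) were nearest FOXA2, ZADH2 (0.117) and GOLGA7B (0.263) nearest PROX1, and NAPB (0.126) and TTPAL (0.128) nearest NFIB. The measure is governed by the 4 line levels, and with 4 lines close matches arise among many genes. None of the 6 factors listed in all lines was among the nearest 2 of another, and the closest pair of these 6 was SOX11 with FOXA1, at 0.92. NEUROD1, SOX2 and YAP1 were not compared in this way.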

How the data were processed

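Total RNA of the 24 libraries was made with an Illumina stranded kit after ribosomal RNA depletion, per the labels' protocols. The submitters' processing notes name the hg38 genome, the aligner STAR (2.7.10a), Subread (2.0.3) with its counter featureCounts, and edgeR (4.2.0). The gene annotation, strand setting and low-count filter are not given in the sources used here. The 5 deposited tables hold raw counts per gene and library, which were the input to every test. Beside them stand the authors' log2 CPM values and log2 fold changes, their signed fold changes, and their p-values and FDR. Of these only the log2 fold changes and FDR are quoted, as the authors' deposited values. The 160491 counts of treated libraries that both the line tables and the class table hold were identical.

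Each line was fitted on its own 6 libraries in R 4.3.3 with edgeR 4.0.16 (TMM scaling, filterByExpr with a minimum count of 10 and a minimum total of 15, quasi-likelihood F-test). P-values were adjusted over all genes of the table by Benjamini-Hochberg, with a threshold of 0.05. Response differences are interaction contrasts, and class differences are contrasts of line means. Library totals over the listed genes ran from 24226553 to 36415190, and no 2 libraries were identical. Standard errors are on the log2 scale. Only the fits of H187 and H82 and the H209 minus H187 interaction were checked on simulated counts, with results not given here. The contrasts between lines under DMSO and between classes were not checked in this way. Alternatives were RLE scaling, other low-count filters, DESeq2 1.42.0, limma 3.58.1 on 1 value per line, a replicate block, a fit of all 24 libraries and leaving out each library.

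Named genes are the 9 factors, the 13 partners and paralogs, and the 2 protein-coding genes with the most similar profile (mean of at least 1 CPM, on log2(CPM + 0.5)). Added to them are the 3 genes of each list with the smallest p in H187 or H209 and in H82 or SHP-77 among those past the threshold. The factors and lists were chosen with earlier results of these data known, so list counts are descriptions. One gene that this rule names is not reported here.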

Additional observations from a re-analysis of the deposited data

Results flagged for a closer look

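The values here were picked out because the response to lurbinectedin differed between groups of libraries by the interaction test itself. For INSM1, the response in H209 minus that in H187 was 0.389939 on the log2 scale, and it passed without any one of the 12 libraries (adjusted p up to 0.0012, edgeR). For SOX11, the response in the ISL1-high minus that in the ISL1-low lines was -0.206718, and it passed without any one of the 24 libraries (adjusted p up to 0.0027). For SOX11, the response in H209 minus that in H187 was 0.184396, and the call was lost on leaving out 1 library in 10 of 12 cases (adjusted p up to 0.14). The class difference and the difference within the class share the H187 and H209 libraries.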

How the results depend on the processing

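Of the 225 recomputed counts of factors called, 193 stayed within 1.5 times the reported count, and of 1571 recomputed values for single factors 1433 kept direction and side of the threshold, 54 lost and 14 gained a call, and 70 changed sign. Where not stated, the cause was not tested. In a fit of all 24 libraries, H209 had 3 factors called, H82 had 1 and SHP-77 had 0. That fit covered only the 6 factors listed in all lines, so NEUROD1 could not be called in it. The authors' deposited table also calls 1 in H82. DESeq2 left 1 for H209 minus H187. With class as the only term, 1 factor was called under DMSO and 1 under lurbinectedin, beside 4598 of 11408 and 5644 of 14463 genes. With limma on 1 value per line 0 and 0 were called, both for the factors and for all genes. There 0 factors had an unadjusted p below 0.05, beside 863 genes under DMSO and 1222 under lurbinectedin. Leaving out single libraries left H209 with 3 to 5 factors, H82 with 0 to 1 and SHP-77 with 0 to 1, and gave 1 to 2 for the difference between classes and 1 to 2 for H209 minus H187. In H209, 3 remained without DMSO replicate 2 or 3 or lurbinectedin replicate 2 or 3. For the class difference, NFIB joined without H187 DMSO replicate 1, H187 lurbinectedin replicate 2, H82 DMSO replicate 3 or H82 lurbinectedin replicate 1.

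Same-numbered control and treated libraries did not deviate together (correlations from -0.157 to 0.0754, 1 of 12 best matched by its own number), and the main fits used no pairing. With 3 libraries per group this cannot settle whether a batch lies behind the replicate number. With it as a replicate block, 1 factor was called in H82 (INSM1, adjusted p = 0.019) and YAP1 in H187 was not (0.061). With that block, the class difference in response was -0.00093 for FOXA1 and 4.1e-05 for FOXA2. All genes called in H82 numbered 395, or 755 with the block, 635 in the fit of all 24 libraries and 652 in the authors' table. In SHP-77 they numbered 737, or 458 in the fit of all 24 libraries. That fit tested the 11408 shared genes, beside 13516 in the main fit of H82 and 14190 in that of SHP-77. Single-library omissions moved H82 between 93 and 1397 and SHP-77 between 417 and 706. For H82 minus SHP-77 they numbered 25, or 41 with DESeq2 and 16 with the block.

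Sign changes were of values near 0 or of class contrasts. PROX1 in H82 was -0.0046 in the fit of all 24 libraries. FOXA1 in the class difference in response was -0.0039 with RLE scaling and -0.0038 with DESeq2. With genes of a mean of at least 1 CPM, FOXA1 for H209 minus H187 was -0.00013 and INSM1 for H209 against SHP-77 was 0.0037. With class as the only term, FOXA2 was -0.92 under DMSO and -0.86 under lurbinectedin, and SOX2 was -3.50 under lurbinectedin. Over single-library omissions the response ran for PROX1 in H187 from -0.10 to 0.0046, and for FOXA1 in H209 from -0.017 to 0.043. In H82 it ran from -0.018 to 0.099 for SOX11, -0.025 to 0.071 for FOXA1 and -0.073 to 0.063 for PROX1, and in SHP-77 from -0.027 to 0.013 for FOXA1. The difference in response between classes ran from -0.016 to 0.029 for FOXA1 and -0.088 to 0.097 for FOXA2. For H209 minus H187 it ran from -0.066 to 0.10 for SOX2 and -0.023 to 0.035 for FOXA1. For H82 minus SHP-77 it ran from -0.078 to 0.037 for SOX11, -0.026 to 0.082 for FOXA1 and -0.081 to 0.054 for PROX1. INSM1 in H209 against SHP-77 ran from -0.070 to 0.055, and NEUROD1 in the class difference under lurbinectedin from -0.38 to 0.35.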
